A study of Homo sapiens with 28 samples.

Results

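The 39 protein-coding genes of the 4 human HOX clusters were followed across 28 RNA-seq libraries of LNCaP cells, an androgen-responsive human prostate cancer line. Members were taken by symbol, as every HOXA, HOXB, HOXC or HOXD gene with a number and without the antisense RNAs, and they are 39 of the 26443 genes with a value. HOXA contributed 11 genes on chromosome 7, HOXB 10 on chromosome 17, HOXC 9 on chromosome 12 and HOXD 9 on chromosome 2. The libraries form a knockdown series of 16 libraries in 8 groups of 2 and a CCS1477 series of 12 libraries in 4 groups of 3. In the knockdown series, cells carried shHOXB13, a hairpin against HOXB13, or shCtrl, the control hairpin, each with shp300, shCBP, both (shp300/CBP) or neither. In the CCS1477 series, shHOXB13 or shCtrl cells received CCS1477, an inhibitor of the p300 and CBP bromodomains, at 250 nM for 48 h, or DMSO. All groups are thus lentivirally transduced LNCaP cells, and each target was addressed with 1 hairpin, so the effect of the target and that of the hairpin cannot be told apart. The replicates were biological duplicates or triplicates by the study's methods, and p-values measure the spread between them.

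HOX genes encode homeodomain transcription factors that give cells their position along the body axis, and within a cluster they lie in the order in which they act, from the anterior group 1 to the posterior group 13. The pattern of HOX genes that a tissue uses is kept in the adult by Polycomb repressors and Trithorax activators. In the prostate the posterior genes dominate, and HOXB13 marks the prostate epithelium, where its protein binds chromatin together with the androgen receptor. p300 and CBP, encoded by EP300 and CREBBP, acetylate histones at enhancers and promoters.

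Levels are given in FPKM, a count of fragments scaled to transcript length and to the mapped reads of the library, as the authors deposited them. Differences are log2 differences of FPKM + 0.1 with their standard errors, which understate the change of genes at low FPKM, and they were tested with limma across all genes of a series at an adjusted p under 0.05 (Benjamini-Hochberg). The libraries held 7458934 to 16338528 mapped reads. Reads assigned to genes were 66.3 to 68.8% of mapped reads in shHOXB13 cells and 72.2 to 74.3% in shCtrl cells, and they were lowest, 52.7 to 61.6%, in shHOXB13+shp300/CBP cells. Markers of luminal prostate cells summed to 1287 to 7514 FPKM, while 6 basal markers summed to 0.791 to 5.49 FPKM and 9 blood and endothelial markers to 3.02 to 41.1 FPKM. TP63, PTPRC and PECAM1, which define basal, blood and endothelial cells, reached at most 0.0193, 0.0150 and 0.0647 FPKM in any library. In bulk RNA, fewer cells of a type and less RNA per cell cannot be told apart. Replicate 1 of shHOXB13+shp300/CBP stood apart from replicate 2 in the summed level of 9 stromal markers (18.9 and 6.5 FPKM) and of 9 blood and endothelial markers (41.1 and 14.2 FPKM, mostly CD68), and the calls it takes part in are also given without it where they were then lost. EP300 fell with shp300 in both backgrounds. It also fell with shHOXB13, at -0.92 (adjusted p = 0.00067) in the knockdown series and -0.86 (adjusted p = 4.4e-05) with DMSO. CREBBP was at -0.32 (adjusted p = 0.12) and -0.97 (adjusted p = 6.3e-06) in the same comparisons. With CCS1477, EP300 was at 0.74 in shHOXB13 cells (adjusted p = 0.00035) and 0.27 in shCtrl cells (adjusted p = 0.099). CREBBP was at 1.16 (adjusted p = 5.8e-06) and 0.42 (adjusted p = 0.0099) there. CREBBP fell with shCBP in shCtrl cells, but its difference of -0.64 ± 0.16 in shHOXB13 cells did not pass (adjusted p = 0.064), and with shp300/CBP in shHOXB13 cells neither gene passed (EP300 -0.41, adjusted p = 0.073, and CREBBP -0.27, adjusted p = 0.23).

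LNCaP cells used few of the HOX genes. Of the 39, 4 (HOXB1, HOXB4, HOXD3 and HOXD10) were at 0 in all 28 libraries, where a count of 0 allows up to 3 reads among the 311355588 mapped reads (counting error only), and 26 stayed under 1 FPKM in every library. A group mean of at least 1 FPKM was reached by 12 genes, none of them in HOXD. HOXB13 had the highest mean in every group except shHOXB13+shp300/CBP, where HOXC6 did. HOXB13 had 87.6 and 85.4 FPKM in shCtrl cells and 139.8, 146.8 and 140.1 FPKM in shCtrl cells with DMSO. HOXC6, a group 6 gene known for its high level in prostate cancer, came next, at 12.1 and 12.5 FPKM in shCtrl cells. HOXC13, the most posterior gene of HOXC, which regulates hair keratins, had 5.44 and 4.997 FPKM there. HOXC9 (3.57 and 2.91 FPKM) lay just above HOXB9 (2.87 and 2.72 FPKM). HOXA10 (2.25 and 2.28 FPKM), HOXC4 (2.13 and 2.35 FPKM) and HOXC12 (2.64 and 1.82 FPKM) followed, with ranges that overlapped, so their order is not resolved by these libraries. The expressed genes therefore lay in 3 clusters, with HOXC genes from HOXC4 to HOXC13 and a single high gene at the posterior end of HOXB. Without HOXB13, groups 4 to 8 averaged a sum of 18.84 FPKM in shCtrl cells and groups 9 to 13 a sum of 16.52 FPKM.

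**Figure D1:**
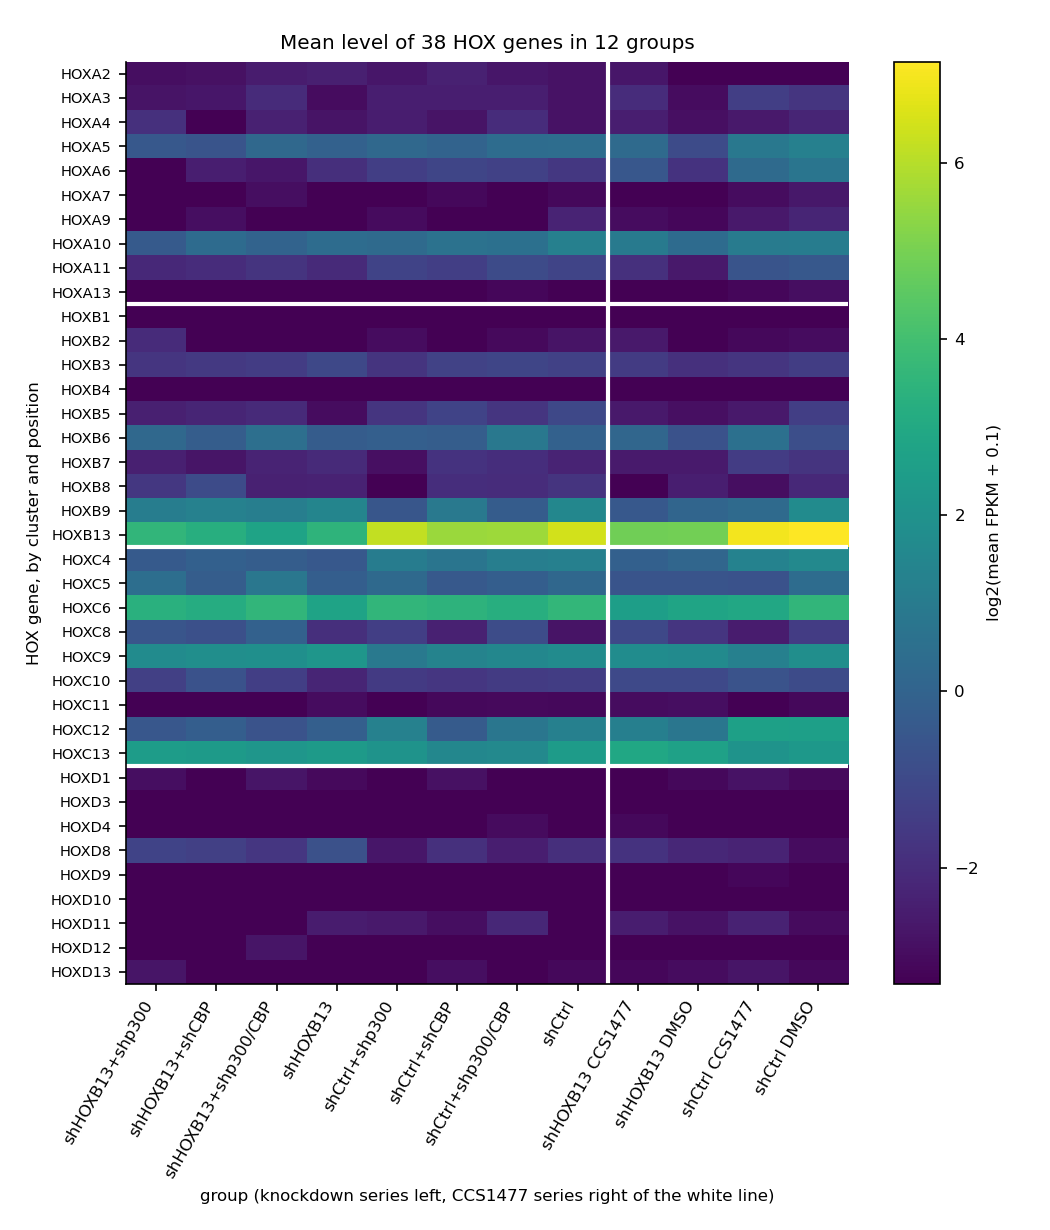
Mean FPKM of 38 of the HOX genes in the 12 groups, with genes ordered by cluster and position. Colours give log2 of mean FPKM + 0.1. HOXB13 is the strongest row in every group except shHOXB13+shp300/CBP, and HOXD is near 0 throughout. HOXC6, HOXC9 and HOXC13 are among the stronger of the other rows, and in shCtrl DMSO HOXC12 lies above HOXC9 and HOXC13.

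The other 38 HOX genes summed to less with shHOXB13 in both series. Their summed FPKM averaged 26.16 ± 0.28 in shHOXB13 cells and 36.09 ± 0.47 in shCtrl cells (SD, n = 2 each), a ratio of 0.725. With DMSO it averaged 24.41 ± 0.77 in shHOXB13 cells and 42.71 ± 0.44 in shCtrl cells (SD, n = 3 each), a ratio of 0.572. The libraries did not overlap in either series, and the exact permutation p of 0.333 and of 0.1 is in each case the smallest that 2 against 2 or 3 against 3 libraries can give. The sums were not rescaled for the median of all genes, which was also lower, at -0.33 on the log2 scale in both series. By cluster, the ratio was lowest for HOXA with DMSO (2.249 FPKM in shHOXB13 cells against 7.328 FPKM in shCtrl cells, ratio 0.307), and it was 0.394 for HOXB without HOXB13 and 0.657 for HOXC. In the knockdown series the ratios were 0.607 for HOXA, 0.849 for HOXB without HOXB13 and 0.707 for HOXC. HOXD, near 0 throughout, summed to 0.5901 FPKM in shHOXB13 cells against 0.1832 FPKM in shCtrl cells (0.03112 and 0.3353 FPKM in the 2 shCtrl libraries). With DMSO its sum was 0.2108 ± 0.095 FPKM in shHOXB13 cells and 0.08832 ± 0.108 FPKM in shCtrl cells (SD, n = 3 each), and the libraries overlapped. The share of HOXB13 in all HOX FPKM was 30.13% in shHOXB13 cells against 70.56% in shCtrl cells, and with DMSO 55.42% in shHOXB13 cells against 76.9% in shCtrl cells.

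**Figure D2:**
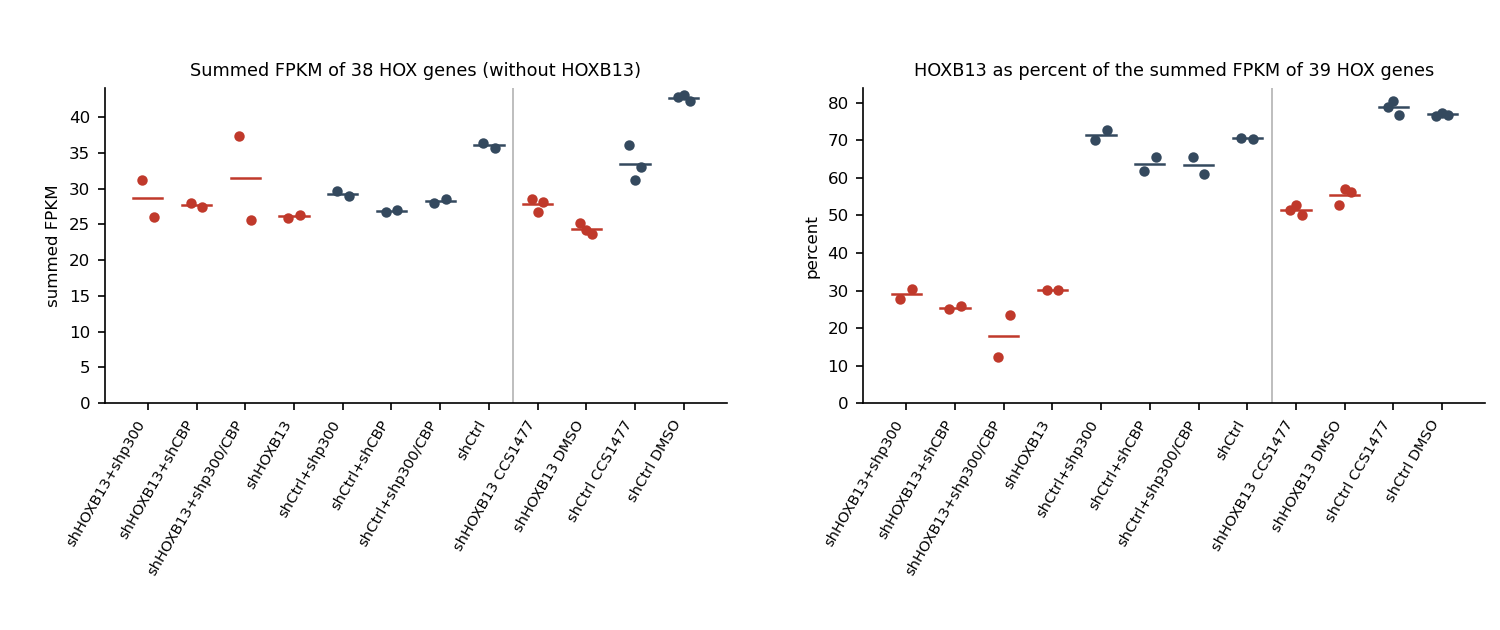
Left, summed FPKM of the 38 HOX genes other than HOXB13 in each library; right, HOXB13 as a percentage of the summed FPKM of all 39 (points, libraries; bars, group means; the line parts the knockdown series from the CCS1477 series). In the groups without a second treatment and with DMSO, the shHOXB13 libraries lie below the shCtrl libraries in both panels, at mean sums of 26.16 against 36.09 FPKM and of 24.41 against 42.71 FPKM with DMSO.

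With shHOXB13 in the knockdown series, 6 of the 25 HOX genes tested fell and 0 rose. Over all genes tested, 30.8% fell and 8.45% rose, so the 6 of 25 stand near the background for falling genes. The HOX median was -0.18 and that of all genes -0.33 on the log2 scale. With DMSO, 12 of 25 HOX genes fell and 1 rose, against 42.4% and 15.2% of all genes, with a median of -0.78 beside -0.33 for all genes. The median of all genes was moved to 0 when libraries were scaled by median-of-ratios, a shift of 0.33 in the knockdown series and 0.31 with DMSO. Under that scaling the HOX counts became 2 higher (HOXC9 and HOXD8) and 2 lower (HOXB13 and HOXC4) in the knockdown series, and 2 higher (HOXC13 and HOXD8) and 10 lower with DMSO. No HOX gene called in either comparison changed sign under it. Relative to the median of all genes, HOXC4 was at -1.32 and HOXC6 at -0.56 in the knockdown series, and HOXC9, at 0.44, was at 0.77.

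HOXB13 itself, the target of the hairpin, had 11.2 and 11.4 FPKM in shHOXB13 cells, against 87.6 and 85.4 FPKM in shCtrl cells. With DMSO it had 28.4, 32.2 and 30.6 FPKM in shHOXB13 cells, against 139.8, 146.8 and 140.1 FPKM in shCtrl cells. Every shHOXB13 library lay far under every shCtrl library, as the labels require, with differences of -2.93 ± 0.17 (adjusted p = 3.2e-07) and -2.22 ± 0.08 (adjusted p = 1.7e-09). PRAC1 and PRAC2, small genes of prostate and hindgut, lie between HOXB13 and the rest of HOXB. PRAC2 fell as well, with differences of -2.43 and -1.53 (adjusted p = 8.9e-06 and 0.00026), whereas PRAC1 fell in the knockdown series (-1.13) and had a difference of -0.15 with DMSO (adjusted p = 0.31).

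In HOXC, HOXC4, HOXC6 and HOXC12 fell in both series, and HOXC8 and HOXC9 did not pass in either. HOXC4, the most anterior gene of HOXC, which in B cells activates the gene of the AID deaminase, had 0.579 and 0.717 FPKM in shHOXB13 cells, against 2.13 and 2.35 FPKM in shCtrl cells. With DMSO it had 1.29, 0.639 and 1.10 FPKM in shHOXB13 cells, against 3.85, 2.82 and 2.14 FPKM in shCtrl cells. The groups did not overlap in either series, and HOXC4 fell by 1.65 ± 0.36 (adjusted p = 0.0037) and by 1.46 ± 0.25 (adjusted p = 0.00037), also without any 1 library. HOXC6 had 5.98 and 7.26 FPKM in shHOXB13 cells, against 12.1 and 12.5 FPKM in shCtrl cells, and with DMSO 7.60, 6.13 and 6.66 FPKM in shHOXB13 cells against 10.47, 11.7 and 13.0 FPKM in shCtrl cells. It fell by 0.89 ± 0.21 (adjusted p = 0.0056) and by 0.78 ± 0.12 (adjusted p = 0.00014). The call of HOXC6 in the knockdown series was just lost without replicate 1 of shHOXB13 (adjusted p = 0.051). HOXC4 and HOXC6 share 484 bases of exon on the same strand in the GENCODE 44 annotation. How reads over those bases were assigned was not examined.

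HOXC12, a posterior gene active in hair follicles, had 0.753 and 0.866 FPKM in shHOXB13 cells, against 2.64 and 1.82 FPKM in shCtrl cells. With DMSO it had 1.19, 1.43 and 2.24 FPKM in shHOXB13 cells, against 6.85, 6.50 and 4.205 FPKM in shCtrl cells. Again no library overlapped. The difference of -1.81 ± 0.27 with DMSO (adjusted p = 0.00011) kept its call without any 1 library, and that of -1.34 ± 0.47 in the knockdown series (adjusted p = 0.039) lost it without any 1 of the 4 shHOXB13 or shCtrl libraries or either shCtrl+shp300 library, at adjusted p up to 0.21, and in 4 of 9 other settings (adjusted p up to 0.14). HOXC5 fell by 0.99 ± 0.27 with DMSO (adjusted p = 0.0076), at 0.759, 0.474 and 0.437 FPKM in shHOXB13 cells against 0.910, 1.12 and 1.59 FPKM in shCtrl cells, and had a difference of -0.36 ± 0.37 in the knockdown series (adjusted p = 0.47).

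HOXC13, the neighbour of HOXC12 on its posterior side, went the other way with DMSO. It had 5.93, 7.39 and 5.77 FPKM in shHOXB13 cells, against 4.85, 4.33 and 4.89 FPKM in shCtrl cells, and rose by 0.43 ± 0.15 (adjusted p = 0.027). The call was lost without replicate 2 of shHOXB13 DMSO (adjusted p = 0.11) or of shCtrl DMSO (adjusted p = 0.087). In the knockdown series HOXC13 had 4.84 and 5.57 FPKM in shHOXB13 cells against 5.44 and 4.997 FPKM in shCtrl cells, values that overlapped (-0.01 ± 0.20, adjusted p = 1). HOXC13 shares 172 bases of exon with its antisense gene HOXC13-AS. HOXC9, which specifies thoracic motor neurons in the mouse, had 4.82 and 4.02 FPKM in shHOXB13 cells against 3.57 and 2.91 FPKM in shCtrl cells (0.44 ± 0.21, adjusted p = 0.12), and -0.18 ± 0.14 with DMSO (adjusted p = 0.31). HOXC8 stayed under 0.5 FPKM in these libraries, with differences of 0.81 ± 0.49 and -0.21 ± 0.39 (adjusted p = 0.22 and 0.68).

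In HOXA, HOXA10 and HOXA11, posterior genes needed for the uterus in the mouse, fell in both series, HOXA11 only just in the knockdown series. HOXA10 had 1.23 and 1.19 FPKM in shHOXB13 cells, against 2.25 and 2.28 FPKM in shCtrl cells, and with DMSO 1.09, 1.15 and 1.30 FPKM in shHOXB13 cells against 2.21, 2.04 and 1.86 FPKM in shCtrl cells. The groups did not overlap, with differences of -0.86 ± 0.23 (adjusted p = 0.012) and -0.74 ± 0.20 (adjusted p = 0.0081). Both were over 0.05 under median-of-ratios scaling (adjusted p = 0.1 in each), and the first was also lost without replicate 1 or 2 of shCtrl (adjusted p = 0.06 and 0.054) or replicate 2 of shHOXB13 (adjusted p = 0.066). HOXA11 had 0.1205 and 0.158 FPKM in shHOXB13 cells, against 0.409 and 0.277 FPKM in shCtrl cells, and with DMSO 0.0346, 0 and 0.163 FPKM in shHOXB13 cells against 0.559, 0.915 and 0.463 FPKM in shCtrl cells. Its difference of -2.24 ± 0.39 with DMSO (adjusted p = 0.00041) held without any 1 library, although HOXA11 had at most 22 reads in any library. That of -0.88 ± 0.32 in the knockdown series (adjusted p = 0.049) held in only 4 of the 16 fits that left out 1 library, those without a shHOXB13+shCBP or a shHOXB13+shp300/CBP library, and reached an adjusted p of 0.26 without replicate 1 of shCtrl. It was also lost in 7 of 8 other settings, the replicate block, limma-voom and the pairwise fit among them, at adjusted p of 0.052 to 0.21. HOXA11-AS, the antisense RNA whose exons share 726 bases with HOXA11 on the other strand, fell by 3.44 and by 3.25 (adjusted p = 0.00011 and 8.2e-05). Reads were counted without strand, and how those over the shared bases were assigned to either gene was not examined.

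HOXA5 and HOXA6, neighbours in the middle of HOXA, fell with DMSO. HOXA5, which is needed for the lung and airways in the mouse, had 0.609, 0.339 and 0.313 FPKM in shHOXB13 cells, against 2.46, 2.40 and 2.02 FPKM in shCtrl cells. HOXA6 had 0.229, 0.117 and 0.215 FPKM in shHOXB13 cells, against 1.70, 0.826 and 2.23 FPKM in shCtrl cells. Neither gene's groups overlapped, and the differences were -2.24 ± 0.24 (adjusted p = 8.8e-06) and -2.48 ± 0.36 (adjusted p = 0.0001). HOXA6 had at most 16 reads in any library, so the size of its difference rests on few reads. In the knockdown series HOXA5 had 0.820 and 0.888 FPKM in shHOXB13 cells against 1.01 and 1.51 FPKM in shCtrl cells (-0.48 ± 0.35, adjusted p = 0.3). HOXA6 had 0.199 and 0.131 FPKM in shHOXB13 cells there, against 0.181 and 0.275 FPKM in shCtrl cells, values that overlapped. The shCtrl levels of both genes were higher in the DMSO arm than in the knockdown series, a difference between experiments that was not tested. HOXA3, needed for the thymus and parathyroid in the mouse, fell by 1.23 ± 0.36 with DMSO (adjusted p = 0.012), at 0.0527, 0.0269 and 0 FPKM in shHOXB13 cells against 0.142, 0.127 and 0.353 FPKM in shCtrl cells, and lost the call without replicate 3 of shCtrl DMSO (adjusted p = 0.057). At most 19 reads of HOXA3 were counted in any library.

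The exons of HOXA3, HOXA6 and HOXA10 share 455, 505 and 608 bases with the antisense genes HOXA-AS2, HOXA-AS3 and HOXA10-AS. How reads over these bases were assigned was not examined.

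In HOXB, HOXB9 fell with DMSO and did not pass in the knockdown series. HOXB9, which acts in mammary gland development in the mouse, had 0.883, 1.18 and 0.7996 FPKM in shHOXB13 cells, against 3.02, 3.68 and 3.10 FPKM in shCtrl cells, a difference of -1.69 ± 0.18 (adjusted p = 7.9e-06) with no overlap. In the knockdown series HOXB9 had 2.99 and 2.22 FPKM in shHOXB13 cells against 2.87 and 2.72 FPKM in shCtrl cells (-0.11 ± 0.40, adjusted p = 0.87). HOXB5 fell with DMSO as well (-1.38 ± 0.55, adjusted p = 0.047) at under 0.6 FPKM, but in only 5 of the 12 fits that left out 1 library, with an adjusted p up to 0.19 (without replicate 1 of shCtrl DMSO). HOXB6 had 0.383, 0.503 and 0.670 FPKM in shHOXB13 cells against 0.295, 0.527 and 0.599 FPKM in shCtrl cells, values that overlapped.

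**Figure D3:**
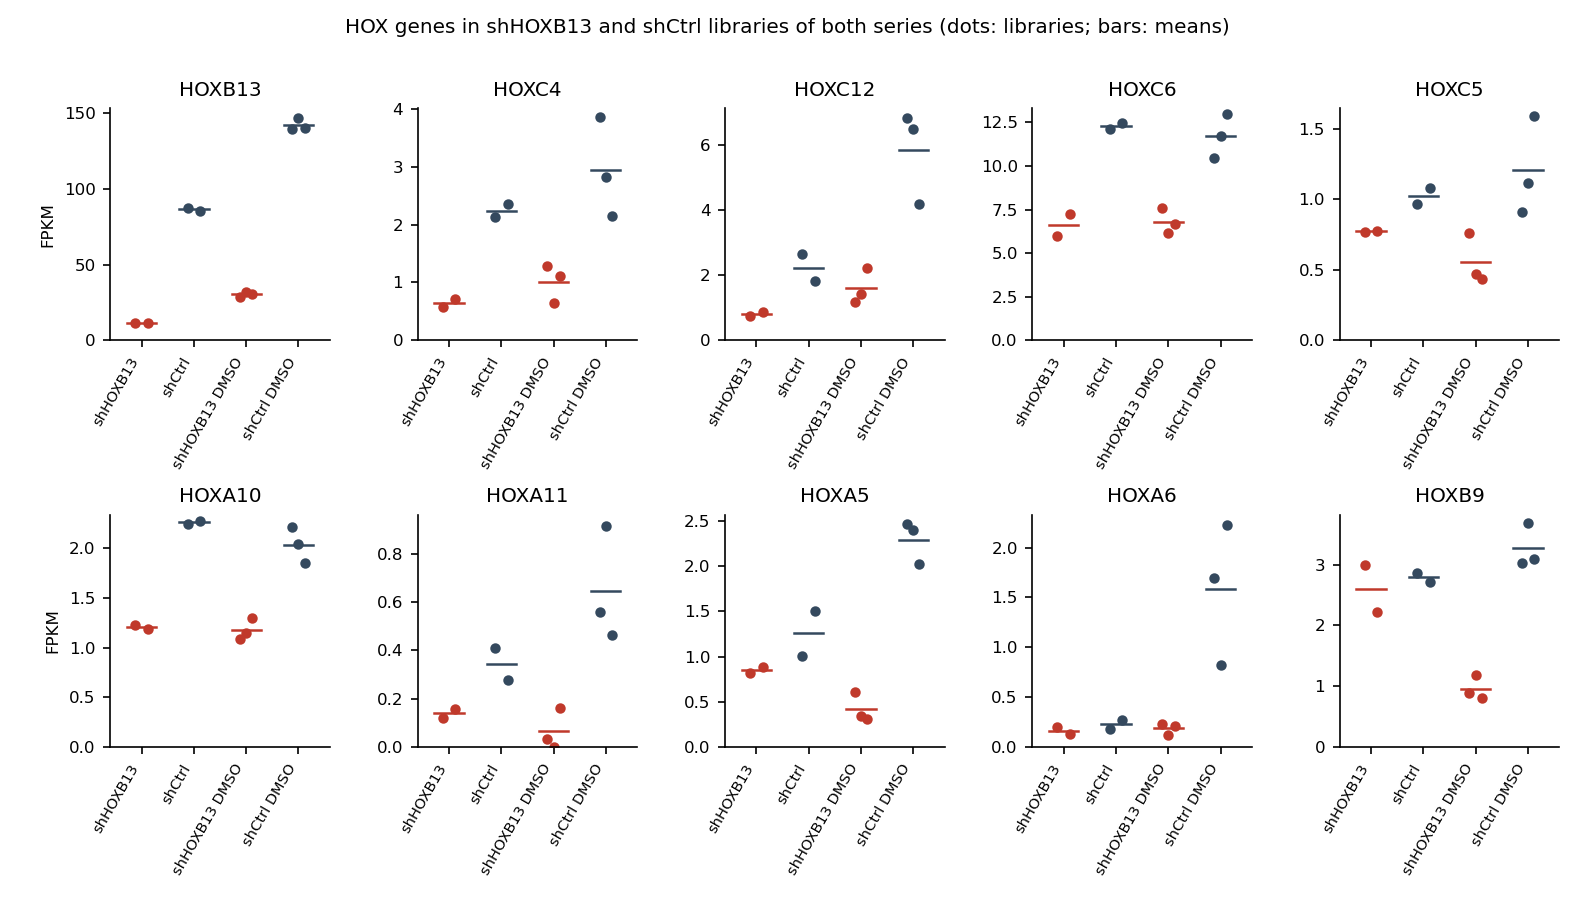
FPKM of 10 HOX genes in shHOXB13 libraries (red) and shCtrl libraries (dark) of the knockdown series and of the DMSO arms of the CCS1477 series (points, libraries; bars, means). For HOXB13, HOXC4, HOXC12, HOXC6, HOXA10 and HOXA11 every shHOXB13 library lies under every shCtrl library of the same series, and for HOXA5, HOXA6 and HOXB9 the gap is wide with DMSO only.

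Because HOXC4 and HOXC5 lie beside each other and HOXA6, HOXA10 and HOXA11 fell with DMSO, the 300 bases around their start sites are shown, from 250 before to 50 after the start, as RefSeq gives them on GRCh38.p14. HOXC4 and HOXC5 have 1 window in common (chr12:54016638-54016937, plus strand). The others are HOXA6 at chr7:27147725-27148024, HOXA10 at chr7:27179812-27180111 and HOXA11 at chr7:27185183-27185482, all on the minus strand. A further HOXA10 window, at chr7:27174271-27174570, is not shown. Capitals mark matches on either strand to CAATAAA and TCGTAAA, letters preferred by posterior HOX proteins, to CCAAT, a promoter box, and to TATAAA, the TATA box.
HOXC4 and HOXC5: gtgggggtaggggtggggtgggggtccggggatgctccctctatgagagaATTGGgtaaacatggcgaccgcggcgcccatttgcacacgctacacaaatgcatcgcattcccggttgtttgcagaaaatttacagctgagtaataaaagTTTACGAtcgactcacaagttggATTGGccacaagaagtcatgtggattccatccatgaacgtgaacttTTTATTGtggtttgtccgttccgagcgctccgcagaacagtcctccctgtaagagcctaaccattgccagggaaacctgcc
HOXA6: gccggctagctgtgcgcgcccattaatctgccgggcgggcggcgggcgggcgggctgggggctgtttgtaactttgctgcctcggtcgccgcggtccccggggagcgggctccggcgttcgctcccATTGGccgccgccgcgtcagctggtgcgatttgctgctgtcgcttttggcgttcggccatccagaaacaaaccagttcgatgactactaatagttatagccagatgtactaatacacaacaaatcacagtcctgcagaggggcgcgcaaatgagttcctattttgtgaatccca
HOXA10: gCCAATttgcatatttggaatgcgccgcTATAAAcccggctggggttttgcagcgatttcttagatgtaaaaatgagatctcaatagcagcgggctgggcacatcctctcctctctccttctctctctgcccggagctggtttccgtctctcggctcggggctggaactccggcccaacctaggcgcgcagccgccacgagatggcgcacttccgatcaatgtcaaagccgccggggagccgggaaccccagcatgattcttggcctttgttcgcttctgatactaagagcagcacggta
HOXA11: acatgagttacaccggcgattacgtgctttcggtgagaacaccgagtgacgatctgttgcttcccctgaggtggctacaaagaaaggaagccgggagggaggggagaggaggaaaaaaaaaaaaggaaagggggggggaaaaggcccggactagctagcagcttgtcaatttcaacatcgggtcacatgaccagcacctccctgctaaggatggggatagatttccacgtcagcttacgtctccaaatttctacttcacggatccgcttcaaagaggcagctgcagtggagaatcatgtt
The shared window of HOXC4 and HOXC5 held 1 match to each posterior HOX motif, both on the opposite strand, to TCGTAAA at -100 and to CAATAAA at -31, and 2 matches to the CCAAT box. The HOX windows searched came from 20 HOX genes, several of them from HOXA3, and do not stand for the whole family. HOXA5, HOXB5, HOXB9, HOXB13, HOXC6 and HOXC12, which fell with DMSO, had no window and were not searched. The first motif of the pair, CAATAAA, was found in 4.01% of all 34943 distinct promoter windows and in 3 of the 26 HOX windows. The other HOX windows with it were those of HOXA3 that begin at 27119546 and 27150901, which are not shown. HOXA3 fell with DMSO, but so did HOXA6, HOXA10 and HOXA11, whose windows held no match to CAATAAA. A link between the motif and the change in level was not tested. TCGTAAA was found in 0.535% of all and in 1 of 26. HOXA11 held none of the 4 motifs in this window. The CCAAT box was in 34.6% of all windows and in 17 of 26, and the TATA box in 11.6% of all and in 5 of 26. Matches to CCAAT can overlap those to the posterior motif that begins with CAAT. A match describes the letters, and binding was not measured here.

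The difference between shHOXB13 and shCtrl cells was available in 6 pairs of groups on separate libraries, with each second treatment and without one. HOXB13 and HOXC4 were the genes that fell in all 6, HOXC4 by 1.01 to 1.65. HOXC12 fell in 5 of 6, HOXA11 in 4, and HOXA10 and HOXC6 in 3 each. HOXC13 rose in 4 of 6, HOXC8 and HOXC9 rose in 2, and HOXB9 rose in 2 and fell in 2. With shp300 in both arms, 3 HOX genes rose and 5 fell, against 10.9% and 30.9% of all genes. With shCBP, 2 rose and 2 fell, against 8.39% and 29.1%. With shp300/CBP, 3 rose and 3 fell, against 8.29% and 34.8%. With CCS1477, 3 rose and 6 fell, against 12% and 30.9%. The share of HOX genes called lower was thus not above that of all genes in these 4 pairs. Under median-of-ratios scaling the balance of calls turned with the hairpins, to 5 higher and 2 lower with shp300, 4 and 1 with shCBP and 5 and 1 with shp300/CBP, and was 3 and 5 with CCS1477. The 3 rises with shp300/CBP (HOXB9, HOXC5 and HOXC13) were all lost without replicate 1 of shHOXB13+shp300/CBP, the library that stood apart (adjusted p = 0.22, 0.056 and 0.2), so without it HOXC13 rose in 3 of 6 and HOXB9 in 1. The fall of HOXC12 with shp300/CBP was lost without replicate 2 of shHOXB13+shp300/CBP (adjusted p = 0.16) or of shCtrl+shp300/CBP (adjusted p = 0.11), and that with shp300 without replicate 1 of shCtrl+shp300 (adjusted p = 0.053). The fall of HOXA11 with shp300 (adjusted p = 0.048) held in 4 of 16 fits that left out 1 library and 1 of 8 other settings.

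HOXC4 with CCS1477 had 0.768, 0.788 and 0.917 FPKM in shHOXB13 cells, against 2.65, 2.10 and 2.41 FPKM in shCtrl cells (-1.42, adjusted p = 0.00079). With shCBP it had 1.2001 and 0.428 FPKM in shHOXB13+shCBP cells against 1.79 and 1.37 FPKM in shCtrl+shCBP cells. That call of HOXC4 (-1.01, adjusted p = 0.046) is the weakest of the 6 and held in 5 of the 16 fits that left out 1 library (those without a shHOXB13+shp300 or shHOXB13+shp300/CBP library or replicate 1 of shHOXB13+shCBP), at adjusted p up to 0.41, and in 3 of 9 other settings. Under median-of-ratios scaling HOXC4 did not pass with shp300 (adjusted p = 0.056), shCBP (adjusted p = 0.24) or shp300/CBP (adjusted p = 0.097). HOXC12 was not lower with shCBP, where both hairpin groups were low, at 1.11 and 0.444 FPKM in shHOXB13+shCBP cells against 0.421 and 0.968 FPKM in shCtrl+shCBP cells. HOXC13 with CCS1477 had 8.45, 6.85 and 6.97 FPKM in shHOXB13 cells, against 3.23, 4.52 and 4.49 FPKM in shCtrl cells (0.86, adjusted p = 0.00065).

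**Figure D4:**
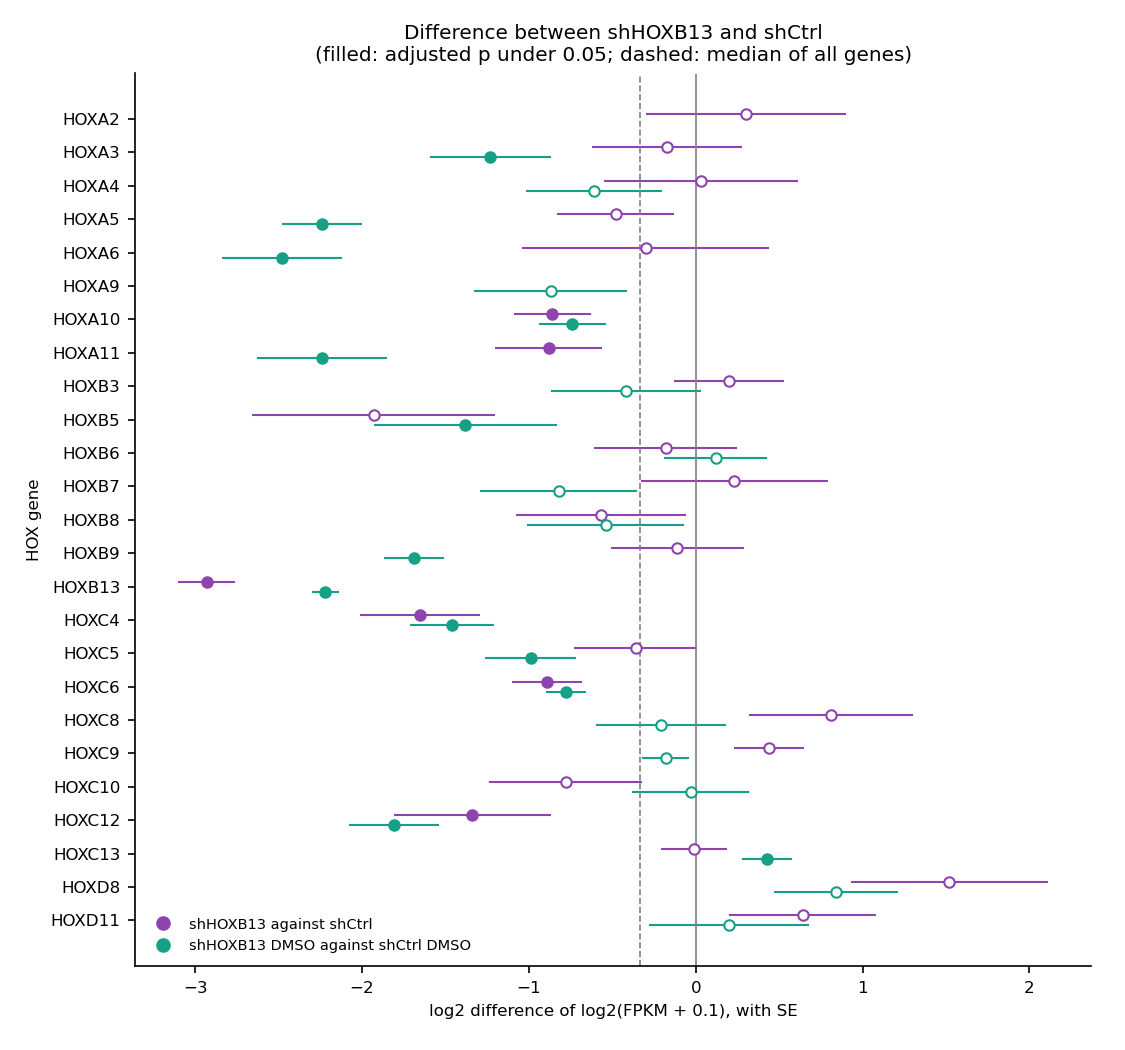
Log2 difference of FPKM + 0.1 of shHOXB13 against shCtrl, by HOX gene ordered by cluster and position, in the knockdown series and in the DMSO arms of the CCS1477 series (points, estimates; bars, standard errors; filled, adjusted p under 0.05; dashed line, median of all genes). HOXC4, HOXC6, HOXC12, HOXA10, HOXA11 and HOXB13 are filled below 0 in both.

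Between the knockdown series and the DMSO arms, 23 genes other than HOXB13 were tested in both: 13 were lower in both, 2 were higher in both and 5 were called lower in both (HOXC12, HOXC4, HOXC6, HOXA10 and HOXA11). Across these 23 genes the log2 differences had Pearson's r of 0.575 and Spearman's rho of 0.579. This describes genes of the same 2 fits, many of them at under 1 FPKM, and genes are not independent replicates.

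With shp300/CBP in shHOXB13 cells few HOX genes were called, and neither EP300 nor CREBBP passed there (adjusted p = 0.073 and 0.23). Of 25 HOX genes, 2 rose (HOXC6 and HOXC8) and 1 fell (HOXB13), against 10.4% and 16.2% of all genes. HOXC6 had 14.9 and 8.88 FPKM in shHOXB13+shp300/CBP cells, against 5.98 and 7.26 FPKM in shHOXB13 cells (0.80 ± 0.21, adjusted p = 0.016). HOXC8, of the thoracic spine in the mouse, had 1.16 and 0.535 FPKM in shHOXB13+shp300/CBP cells, against 0.244 and 0.0918 FPKM in shHOXB13 cells (1.80 ± 0.49, adjusted p = 0.019). Both values are highest in replicate 1, the library that stood apart in stromal and blood markers, whose part in these results was not tested, and without it neither gene passed (adjusted p = 0.11 for HOXC6 and 0.13 for HOXC8). HOXC6 was also lost without replicate 1 of shHOXB13 (adjusted p = 0.12) and HOXC8 without replicate 2 (adjusted p = 0.14). HOXB13 had 5.25 and 7.94 FPKM in shHOXB13+shp300/CBP cells, against 11.2 and 11.4 FPKM in shHOXB13 cells, and fell by 0.80 ± 0.17 (adjusted p = 0.0051). When only the 2 groups were fitted, 0 of the 3 calls remained, at adjusted p of 0.083 to 0.13. Luminal markers moved with the same comparison, with 11 of 12 lower, at sums of 1287 to 1340 FPKM in shHOXB13+shp300/CBP cells and 4494 to 4627 FPKM in shHOXB13 cells, and their part in the HOX values was not tested.

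In shCtrl cells shp300/CBP was followed by 1 rise (HOXC8) and 3 falls (HOXB9, HOXB13 and HOXC13) among 25 HOX genes, against 8.90% and 9.40% of all genes. HOXB9 had 0.552 and 0.884 FPKM in shCtrl+shp300/CBP cells, against 2.87 and 2.72 FPKM in shCtrl cells (-1.85 ± 0.40, adjusted p = 0.0084). It lost the call without replicate 1 of shCtrl (adjusted p = 0.056) or of shCtrl+shp300/CBP (adjusted p = 0.074). HOXC13 had 3.37 and 2.48 FPKM in shCtrl+shp300/CBP cells, against 5.44 and 4.997 FPKM in shCtrl cells (-0.83 ± 0.20, adjusted p = 0.015), and lost the call without either shCtrl library or replicate 2 of shCtrl+shp300/CBP, at adjusted p up to 0.15. HOXC8 rose to 0.274 and 0.615 FPKM in shCtrl+shp300/CBP cells, against 0.0633 and 0.0321 FPKM in shCtrl cells, with a difference of 1.82 ± 0.49 (adjusted p = 0.024) that was lost without either shCtrl library or replicate 2 of shCtrl+shp300/CBP (adjusted p up to 0.2). HOXB13 had 53.7 and 45.0 FPKM in shCtrl+shp300/CBP cells, against 87.6 and 85.4 FPKM in shCtrl cells (-0.81, adjusted p = 0.0064), lost without replicate 2 of shCtrl+shp300/CBP (adjusted p = 0.073). Leaving out 1 library gave 1 to 4 calls in all. Of the luminal markers 1 of 12 rose and 6 fell here, and 8 neuroendocrine markers summed to 8.38 to 8.56 FPKM in shCtrl+shp300/CBP cells against 0.831 to 1.06 FPKM in shCtrl cells, whose part in these results was not tested.

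Single hairpins gave fewer calls. In shHOXB13 cells, shp300 and shCBP each gave 0 calls among 25 HOX genes with limma, against 6.94% and 1.53% of all genes, with 3 genes at an unadjusted p under 0.05 in each case and 0 calls by limma-voom on the recovered reads. For shp300, 1 gene was called under median-of-ratios scaling (HOXA10, lower) and 1 under TPM scaling (HOXC6, higher). In shCtrl cells shp300 gave 1 call, against 3.25% of all genes: HOXB9 fell to 0.514 and 0.697 FPKM in shCtrl+shp300 cells, against 2.87 and 2.72 FPKM in shCtrl cells (-2.05 ± 0.40, adjusted p = 0.019). That call was lost without any 1 of these 4 libraries, at adjusted p up to 0.17. The count was 3, all falls, with a filter of 1 FPKM, median-of-ratios or TPM scaling (HOXA10, HOXB9 and HOXC9) and with limma-voom (HOXA10, HOXB8 and HOXB9). In shCtrl cells shCBP gave 3 calls, all falls, against 12.2% of all genes: HOXB13 (-0.87, adjusted p = 0.0086), HOXC12 (-1.62, adjusted p = 0.043) and HOXC13 (-0.87, adjusted p = 0.018). HOXC13 had 2.76 and 2.84 FPKM in shCtrl+shCBP cells, against 5.44 and 4.997 FPKM in shCtrl cells, and lost its call without any 1 of these libraries (adjusted p up to 0.13). The call of HOXC12 held in only 5 of 16 fits that left out 1 library (those without a shHOXB13+shCBP or shHOXB13+shp300/CBP library or replicate 2 of shCtrl+shCBP), at adjusted p up to 0.31, and that of HOXB13 was lost without replicate 1 of shCtrl (adjusted p = 0.073) or of shCtrl+shCBP (adjusted p = 0.085).

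With CCS1477 in shHOXB13 cells, 4 HOXA genes were among those that rose. Of 25 HOX genes 5 rose (HOXA3, HOXA5, HOXA6, HOXA10 and HOXB6) and 1 fell (HOXB9), against 29.2% and 10.4% of all genes, and the HOX median was 0.27 beside 0.20 for all genes. The count of 5 of 25 does not exceed the background for rising genes. Under median-of-ratios scaling, which moved the median of all genes by -0.19, 2 rose (HOXA5 and HOXA6) and 3 fell (HOXB9, HOXB13 and HOXC6). HOXA5 had 0.920, 1.29 and 1.14 FPKM in shHOXB13 cells with CCS1477, against 0.609, 0.339 and 0.313 FPKM with DMSO (1.26 ± 0.24, adjusted p = 0.0015), with no overlap and in every fit that left out 1 library. The shHOXB13 libraries with DMSO are the same ones that were compared with shCtrl DMSO above, where HOXA5 was lower in them. HOXA6 had 0.864, 0.355 and 0.644 FPKM with CCS1477, against 0.229, 0.117 and 0.215 FPKM with DMSO (1.29 ± 0.36, adjusted p = 0.014), and was lost without replicate 2 of DMSO (adjusted p = 0.055) or replicate 1 of CCS1477 (adjusted p = 0.064). The call of HOXA6 was also lost with a pseudocount of 1 (adjusted p = 0.079) and with limma-voom (adjusted p = 0.083). HOXA10 had 2.07, 1.87 and 1.78 FPKM with CCS1477, against 1.09, 1.15 and 1.30 FPKM with DMSO (0.65 ± 0.20, adjusted p = 0.024), without overlap, and was lost without replicate 1 or 2 of either arm (adjusted p up to 0.079).

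The summed FPKM of HOXA averaged 4.534 with CCS1477 and 2.249 with DMSO in shHOXB13 cells, a ratio of 2.02 (exact permutation p = 0.1, the smallest 3 against 3 can give). HOXA3 (adjusted p = 0.049) and HOXB6 (adjusted p = 0.047) held their rise in 3 and 5 of the 12 fits that left out 1 library, both at adjusted p up to 0.15 (HOXA3 without replicate 3 and HOXB6 without replicate 1 of shHOXB13 DMSO). HOXA3 held it in 5 of 8 other settings and HOXB6 in 3 of 9. HOXB9 fell in shHOXB13 cells (-0.52 ± 0.18, adjusted p = 0.036, lost without replicate 1 or 2 with DMSO or replicate 2 or 3 with CCS1477 and in 5 of 9 other settings), at 0.693, 0.527 and 0.670 FPKM with CCS1477 against 0.883, 1.18 and 0.7996 FPKM with DMSO. HOXB13 did not pass, at 30.2, 29.8 and 28.4 FPKM with CCS1477 against 28.4, 32.2 and 30.6 FPKM with DMSO (-0.04 ± 0.08, adjusted p = 0.71). Of the luminal markers 1 of 12 rose and 9 fell in this comparison, at sums of 2681 to 2779 FPKM with CCS1477 and 6561 to 7514 FPKM with DMSO, and their part in the HOX values was not tested.

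In shCtrl cells CCS1477 gave 1 rise (HOXB6) and 4 falls (HOXB9, HOXC5, HOXC6 and HOXC9), against 15.4% and 9.91% of all genes, with a HOX median of -0.26 beside 0.06. HOXB9 had 1.25, 1.11 and 1.03 FPKM with CCS1477, against 3.02, 3.68 and 3.10 FPKM with DMSO (-1.45 ± 0.18, adjusted p = 0.00016). HOXC6 had 8.74, 7.18 and 7.06 FPKM with CCS1477, against 10.47, 11.7 and 13.0 FPKM with DMSO (-0.61 ± 0.12, adjusted p = 0.0029). HOXC9 had 2.46, 2.19 and 2.12 FPKM with CCS1477, against 3.13, 3.72 and 3.76 FPKM with DMSO (-0.63 ± 0.14, adjusted p = 0.0069). In these 3 genes the arms did not overlap and the calls held without any 1 library. HOXC5 fell as well (-1.06 ± 0.27, adjusted p = 0.013), lost without replicate 3 of shCtrl DMSO (adjusted p = 0.057). HOXB6 rose, at 1.96, 0.815 and 1.28 FPKM with CCS1477 against 0.295, 0.527 and 0.599 FPKM with DMSO (1.30 ± 0.31, adjusted p = 0.0099). Exons of HOXB6 share 433 bases with HOXB3 and 425 bases with HOXB-AS3 in GENCODE 44.

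**Figure D5:**
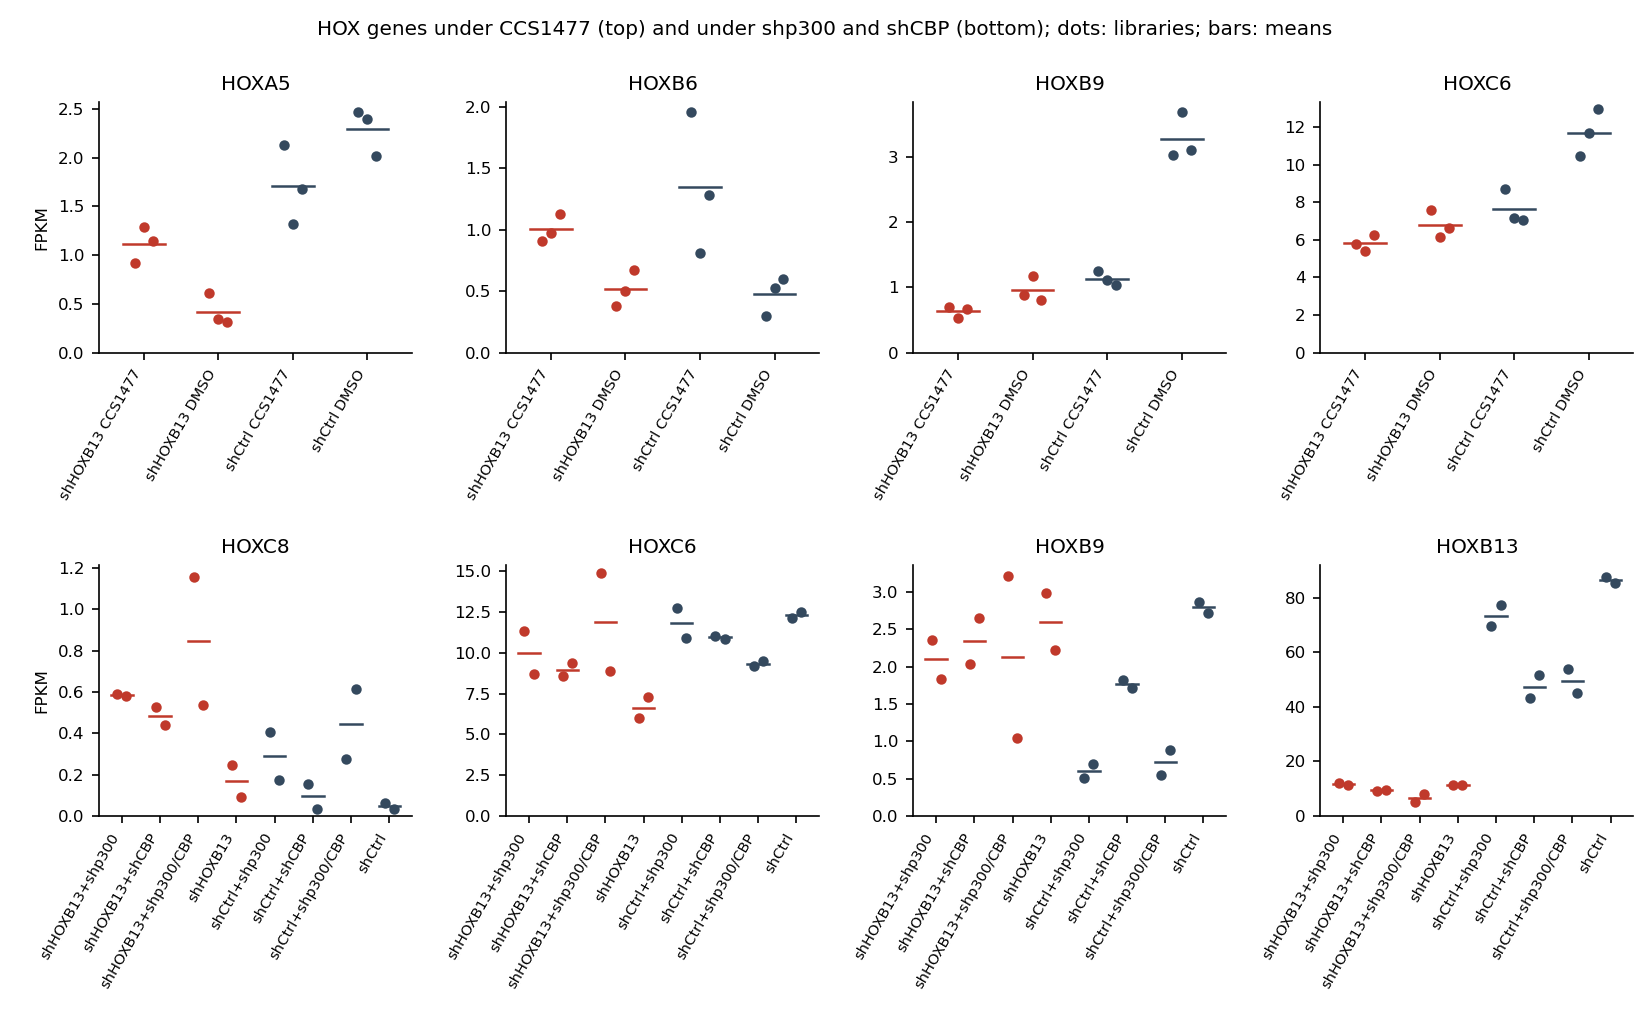
FPKM of HOX genes in each library with CCS1477 or DMSO (top) and with shp300, shCBP, both or neither (bottom), in shHOXB13 cells (red) and shCtrl cells (dark; points, libraries; bars, means). HOXA5 is higher with CCS1477 in shHOXB13 cells (0.920, 1.29 and 1.14 FPKM against 0.609, 0.339 and 0.313 FPKM with DMSO), and HOXB9 is lower with CCS1477 in shCtrl cells.

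The effect of the second treatment was compared between shHOXB13 and shCtrl cells with an interaction term. For shp300/CBP, 1 of 25 HOX genes passed (HOXC6, higher in shHOXB13 than in shCtrl cells by 1.19 ± 0.30, adjusted p = 0.031), against 8.13% of all genes. For CCS1477, 3 of 25 passed, against 13.3% of all genes: HOXA5 by 1.68 ± 0.34 (adjusted p = 0.0085), HOXB9 by 0.93 ± 0.25 (adjusted p = 0.032) and HOXC9 by 0.70 ± 0.20 (adjusted p = 0.037). HOXA5 held in all 12 fits that left out 1 library, HOXB9 and HOXC9 in 4 each and HOXC6 in 9 of 16. The interaction with shp300 alone or shCBP alone gave 0 calls among the HOX genes with limma, against 0.854% and 0.605% of all genes, with 3 and 4 genes at an unadjusted p under 0.05 and 0 by limma-voom.

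Counts of other genes of the HOX system are read against the 30.8% lower and 8.45% higher of all genes in the knockdown series and the 42.4% and 15.2% with DMSO. They are given without rescaling for the median of all genes. Of 9 TALE homeobox cofactors, which bind DNA with HOX proteins, 1 rose and 3 fell with shHOXB13 in the knockdown series, and 1 rose and 5 fell of 8 tested with DMSO. PKNOX2 had 0.171 and 0.0563 FPKM in shHOXB13 cells, against 2.93 and 3.29 FPKM in shCtrl cells (-3.96, adjusted p = 2.2e-05), and -2.69 with DMSO. MEIS3 had 2.40 and 2.09 FPKM in shHOXB13 cells, against 0 and 0.102 FPKM in shCtrl cells (4.04, adjusted p = 0.00017), and 1.69 with DMSO. Of 10 HOX noncoding RNAs tested, 2 fell in the knockdown series (HOXA11-AS and HOTAIRM1, -0.74), and of 9 with DMSO, 1 fell and 1 rose (HOXC13-AS, 0.52). The 3 of 9 cofactors and 2 of 10 noncoding RNAs that fell in the knockdown series do not stand out from that background. HOXA11-AS was at 0 and 0.0678 FPKM in shHOXB13 cells, against 1.12 and 1.52 FPKM in shCtrl cells. Of the genes bordering or inside the clusters, SKAP2, beside HOXA, fell in both series (-1.53, and -1.17 with DMSO), as did CBX5, the gene of a heterochromatin protein beside HOXC (-1.35 and -1.04). TTLL6, beside HOXB, rose in both (1.32 and 1.00).

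Among regulators of the clusters, 18 of 31 Polycomb genes fell and 0 rose with shHOXB13 in the knockdown series, and 26 of 31 fell and 0 rose with DMSO, against the 30.8% and 42.4% of all genes given above. Of 13 Trithorax and MLL genes, 5 and 8 fell and 0 rose. Of 8 CTCF and cohesin genes, which shape the loops of the clusters, 6 and 7 fell and 0 rose. Of the retinoic acid pathway, which switches HOX genes on in the embryo, 2 of 11 and 6 of 10 fell. Luminal prostate markers moved with the same comparison, with 3 of 12 higher and 7 lower in the knockdown series and 5 higher and 6 lower with DMSO, and the part of a changed luminal state in the HOX values was not tested. With CCS1477 in shHOXB13 cells, 21 of 31 Polycomb genes and 6 of 8 CTCF and cohesin genes rose and 0 fell, against 29.2% of all genes. The shHOXB13 DMSO libraries in that comparison are the same ones that were compared with shCtrl DMSO. These counts are not rescaled for the median of all genes, which was -0.33 with shHOXB13 in both series and 0.20 with CCS1477 in shHOXB13 cells.

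The remaining 23 HOX genes were not described one by one because no group mean reached 1 FPKM and none passed in the 6 main comparisons. HOXB8 rose in shHOXB13+shp300 against shCtrl+shp300 cells (1.63, adjusted p = 0.022), the 1 such gene called in the other pairs, and without replicate 1 of shHOXB13+shp300 (adjusted p = 0.16) or either shCtrl+shp300 library (adjusted p up to 0.081) it did not pass. The others gave only levels in these fits. Over the 28 libraries HOXB3 had up to 0.464, HOXC10 up to 0.691 and HOXD8 up to 0.517 FPKM. HOXA2, HOXA4, HOXA9, HOXB7 and HOXD11 reached 0.177, 0.284, 0.194, 0.370 and 0.187 FPKM at most, and HOXB8 0.588 FPKM. HOXD8, the highest of HOXD, had a positive difference in 6 of the 6 pairs of shHOXB13 and shCtrl groups, 0.44 to 1.52, and was called in none by the limma fit on log2(FPKM + 0.1). It was called higher in the knockdown series with a pseudocount of 1, median-of-ratios scaling, TPM scaling and limma-voom, with shp300 under both scalings and in the pairwise fit, and with DMSO with a pseudocount of 0.01 and under median-of-ratios scaling. Exons of HOXD8 share 642 bases with HOXD-AS2 in GENCODE 44. HOXA7, HOXA13, HOXB2, HOXC11, HOXD1, HOXD4, HOXD9, HOXD12 and HOXD13 had 1 to 14 reads in all 28 libraries together, so no difference could be detected in them at this depth.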

How the data were processed

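The authors deposited gene-level FPKM, made with an in-house script from STAR counts of polyA RNA read without strand on GRCh38 (STAR 2.6.0 in the submitters' processing notes). The annotation used for counting is not given in the sources used here. Of 26475 genes listed, 32 had no value. FPKM steps gave back whole reads (475332 values in 22422 genes, each within 0.05 of a whole number). Groups follow the labels. The values of 1 HOX gene are not reported here, although it is in all counts and sums.

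For each series 1 limma fit (limma 3.58.1, R 4.3.3, trend) on log2(FPKM + 0.1) covered genes that reached 0.1 FPKM in 2 or more libraries of the knockdown series, or in 3 or more of the inhibitor series, with Benjamini-Hochberg adjustment within each comparison over all genes tested and a threshold of 0.05. This left 25 HOX genes in each series. Genes described in full had a group mean of at least 1 FPKM or a call in the 6 main comparisons (16 genes). Sums were compared with exact two-sided permutation tests. Members and lists were chosen with earlier results of these data known. The fit was tested on simulated data. Alternatives were pseudocount, filter, scaling, voom, replicate block, pairwise fits and each library left out. The interactions with shp300 or shCBP alone were added after seeing the data. Exon overlaps come from GENCODE 44.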

Additional observations from a re-analysis of the deposited data

Results flagged for a closer look

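The effect of the second treatment differed between shHOXB13 and shCtrl cells, by limma's interaction term, in 4 HOX genes. HOXC6 differed by 1.19 on the log2 scale with shp300/CBP (adjusted p = 0.031). It had a difference of 0.80 in shHOXB13 cells and -0.39 in shCtrl cells, and did not pass without any 1 of 7 of the 8 libraries compared, the exception being replicate 2 of shHOXB13+shp300/CBP. HOXA5 differed by 1.68 with CCS1477 (adjusted p = 0.0085), with 1.26 in shHOXB13 cells and -0.42 in shCtrl cells, and passed without any 1 library. HOXB9 differed by 0.93 (adjusted p = 0.032) and HOXC9 by 0.70 (adjusted p = 0.037) with CCS1477. HOXB9 was at -0.52 in shHOXB13 cells and -1.45 in shCtrl cells, HOXC9 at 0.08 and -0.63, and each passed in 4 of the 12 fits that left out 1 library, those without replicate 1 of shCtrl DMSO or shCtrl CCS1477, and for HOXB9 those without replicate 2 of shHOXB13 DMSO or shHOXB13 CCS1477, for HOXC9 those without replicate 1 or 2 of shHOXB13 DMSO. The highest adjusted p was 0.079 for HOXB9 and 0.09 for HOXC9.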

How the results depend on the processing

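No HOX call reversed under any alternative: over all settings, 1358 re-tests of called genes kept the call and 260 lost it. Of those kept, 816 were fits that left out 1 library, many of them a library outside the groups compared. The total therefore says little of how a call depends on its own libraries. Of the counts of HOX genes called, 3 in shHOXB13+shp300/CBP against shHOXB13 became 0 in the pairwise fit, and 4 in shCtrl+shp300/CBP against shCtrl became 8. In shCtrl+shp300 against shCtrl, 1 became 3 with a filter of 1 FPKM, with median-of-ratios or TPM scaling and with limma-voom, and in shHOXB13+shp300/CBP against shCtrl+shp300/CBP 6 became 3 in the pairwise fit. Of the interactions, 3 with CCS1477 became 1 (HOXA5) with limma-voom, and 1 with shp300/CBP became 0 in the pairwise fit. With CCS1477 in shHOXB13 cells, 6 became 2 with a pseudocount of 1, 3 with the replicate block and 3 with limma-voom. The causes were not tested. With each library left out, the counts ran from 3 to 7 (shHOXB13 against shCtrl, 6 with all), 11 to 13 (DMSO, 13), 2 to 4 and 1 to 4 (shp300/CBP in shHOXB13 and shCtrl cells), 1 to 6 and 5 to 6 (CCS1477 in shHOXB13 and shCtrl cells, 6 and 5). The count of 3 arose without replicate 1 of shCtrl or either shHOXB13 library. The replicate block gave 5, 13, 3, 4, 3 and 6 calls in the 6 comparisons. Same-numbered libraries did not deviate together in the knockdown series (r of -0.15 to 0.168 over 56 pairs). With 2 libraries per group, replicates 1 and 2 give the same r for a pair of groups, so these 56 values repeat and are not independent. In the CCS1477 series r was -0.116 to 0.498 over 18 pairs. It was highest between shCtrl DMSO and shCtrl CCS1477, at 0.498, 0.296 and 0.242 for replicates 1, 2 and 3. These shCtrl libraries thus deviated together in part, and whether they share a batch was not tested. Replicate 1 lay apart in both shCtrl arms. Its correlation over genes with replicates 2 and 3 was 0.9813 and 0.9804 in shCtrl DMSO, against 0.9881 between those replicates. In shCtrl CCS1477 it was 0.9822 with either, against 0.9893. Genes under 1 FPKM rest on few reads.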
